A study of Mus musculus with 42 samples.

Results

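The genes of spleen B cells were compared between young mice carrying the G201V allele of Psmb8 on both chromosomes (homozygous) and young wild-type (WT) mice. The 8 libraries were chosen by their titles, which name the age group (Young), the genotype and the cell type, and they are 8 of the 42 libraries of the series. The 4 homozygous libraries carry the genotype label Psmb8 G201V/G201V, and 3 of the 4 WT libraries carry the label Psmb8 +/+. The genotype label of WT replicate 4 reads Psmb9 +/+ although its title names it WT, and results are given without that library where leaving it out changes them. All animals were untreated. The labels give no age in weeks, strain, sex or sorting gate, and do not say whether a library came from 1 animal. Where nothing names separate animals, the p-values measure the spread between these libraries. The series also holds old B cells (3 homozygous and 3 WT libraries), and, in both ages and genotypes, T cells and a fraction labelled non-BT. The purpose given for the series was to find genes deregulated in each cell type.

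Psmb8 encodes β5i, a catalytic subunit of the immunoproteasome, which replaces the constitutive subunit β5 in cells of the immune system. The proteasome consists of a 20S barrel with the catalytic sites inside and a 19S cap that unfolds ubiquitin-marked proteins, and its products include the peptides shown on MHC class I. In man, mutations of PSMB8 cause autoinflammatory syndromes marked by an interferon response, among them Nakajo-Nishimura syndrome. The B cells of the spleen are mainly follicular cells, with marginal zone cells, germinal centre cells and antibody-secreting cells as smaller groups. The spleen also holds macrophages of the red pulp, which take up old red blood cells and recycle their iron.

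Values are FPKM, fragments scaled to transcript length and to the number of mapped fragments, as the authors calculated them. The depth estimated from the smallest steps of FPKM was 15180000 to 25760000 fragments in homozygous libraries and 18040000 to 22200000 in WT libraries. Correlations of log2(FPKM + 1) were 0.963 to 0.978 between replicates and 0.957 to 0.971 between genotypes. B cell markers were high in every library. Cd79a, a chain of the B cell receptor, stood at 1969, 1971, 2002 and 1779 FPKM in homozygous libraries and at 1918, 2129, 1747 and 1668 FPKM in WT libraries. The 13 T cell markers together reached 54.1 to 65.3 FPKM in homozygous libraries and 65.8 to 96.8 FPKM in WT libraries. Immunoglobulin genes took 14.5, 12.7, 16.7 and 14.8% of all FPKM in homozygous libraries and 16.1, 21.9, 19.8 and 21% in WT libraries. Their share was thus lower in most homozygous libraries, with homozygous replicate 3 above WT replicate 1.

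Psmb8 (chr17:34197721-34201454, GRCm38) had 568, 613, 636 and 650 FPKM in homozygous B cells, against 648, 717, 648 and 675 FPKM in WT B cells. The groups overlapped, and the log2 fold change was -0.12 ± 0.10 (SE, limma adjusted p = 0.767). A point change leaves the reads of a gene in place, so this level does not check the genotype labels. The 6 genes of the immunoproteasome and its activator PA28 had a median log2 fold change of 0.01, which turned to -0.0649 within replicates 1 and 2, and none passed the threshold. Psme1, a subunit of PA28, had 331, 312, 332 and 326 FPKM in homozygous cells and 288, 322, 301 and 272 FPKM in WT cells.

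A test with limma on log2(FPKM + 1) over all 14 B cell libraries, old and young, called 9 of 12269 genes at an adjusted p below 0.05 (0.0734%). Homozygous B cells had 2 of these higher (0.0163%) and 7 lower (0.0571%). Fold changes are homozygous minus WT on the log2(FPKM + 1) scale, which understates the change of genes with low values. Over all genes tested the median log2 fold change was -0.02, and 53.2% were negative. At an unadjusted p below 0.05 there were 1152 genes (9.39%). Homozygous and WT libraries did not overlap for 960 genes (7.82%), with the homozygous libraries above all WT libraries for 269 (2.19%) and below all of them for 691 (5.63%). When only the 8 young libraries were fitted, the test called 180 of 11661 genes (1.54%), 13 higher (0.111%) and 167 lower (1.43%). All 9 genes were among them. Leaving out 1 library at a time from the 14 left 2 to 5 calls without a young library, and 3 of the 9 without WT replicate 4 (Cd163, Cdh17 and Gm44389). Without an old library there were 11 to 86 calls, the most without old homozygous replicate 2. Below, counts of genes that passed are those over all 14 libraries, and counts in the young-only fit are given separately.

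The largest fall among the 9 was that of Cd163 (chr6:124304656-124330527), the receptor by which macrophages take up haemoglobin bound to haptoglobin. It had 0.468, 0.145, 0.491 and 0.125 FPKM in homozygous B cells, against 10.01, 8.84, 9.82 and 14.2 FPKM in WT B cells. Every homozygous library lay below 1 FPKM and every WT library above 8 FPKM, and the log2 fold change was -3.16 ± 0.36 (adjusted p = 0.00288). The log2 fold change was -3.005 within replicates 1 and 2 and -3.31 within replicates 3 and 4, whose library names fall in separate number runs. C6 (chr15:4727175-4814967), a component of the membrane attack complex of complement, had 1.27, 0.774, 0.465 and 0.757 FPKM in homozygous cells and 8.76, 19.03, 9.04 and 10.9 FPKM in WT cells. These groups were also far apart, with a log2 fold change of -2.78 ± 0.39 (adjusted p = 0.0174). Cd14, the co-receptor for bacterial lipopolysaccharide, had 9.73, 4.45, 3.03 and 2.56 FPKM in homozygous cells and 30.4, 44.3, 17.4 and 23.6 FPKM in WT cells. Its log2 fold change was -2.39 ± 0.40 (adjusted p = 0.0472), and homozygous replicate 1 was the highest of its group.

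Stab2, a scavenger receptor of sinusoidal endothelium, had 1.08, 0.990, 1.03 and 0.525 FPKM in homozygous cells and 3.75, 4.22, 4.42 and 5.36 FPKM in WT cells, a log2 fold change of -1.52 ± 0.23 (adjusted p = 0.029). Cdh17, a cadherin, had 9.21, 8.90, 7.48 and 7.29 FPKM in homozygous cells and 18.2, 20.1, 17.6 and 13.2 FPKM in WT cells, a log2 fold change of -0.98 ± 0.16 (adjusted p = 0.029). Gm15523, an antisense transcript whose reads cannot be told from those of the opposite strand, reached at most 0.505 FPKM in homozygous cells and at least 1.56 FPKM in WT cells. Both higher genes had low values. The protein-coding gene 6030468B19Rik had 1.81, 2.47, 2.62 and 2.18 FPKM in homozygous cells and 0.226, 0.346, 0.615 and 0.677 FPKM in WT cells, a log2 fold change of 1.16 ± 0.18 (adjusted p = 0.029). The very short processed pseudogene Gm44389 (chr6:60461933-60462114) had 2.49, 2.83, 1.69 and 1.91 FPKM in homozygous cells and was listed at 0 in all 4 WT libraries (adjusted p = 0.00288). It was also at 0 in every old B library, so only the young homozygous libraries add spread to its p-value. In young WT T cells it had 2.12, 0, 1.76 and 0 FPKM. Young homozygous and young WT B libraries did not overlap for any of these genes.

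**Figure D1:**
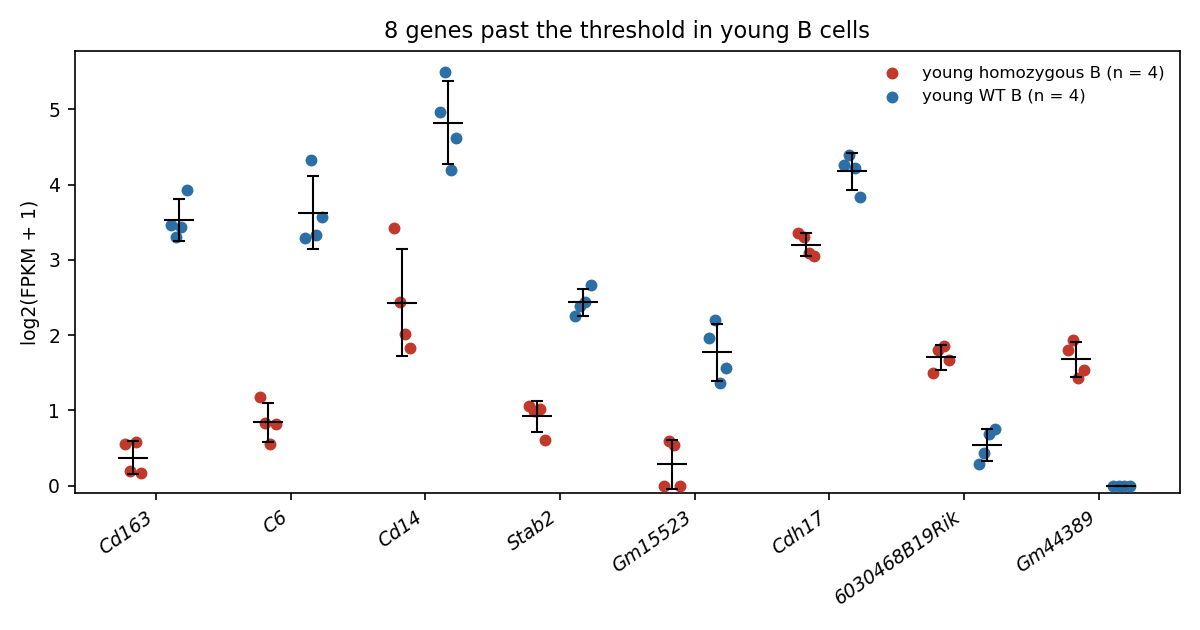
Expression of 8 genes past the threshold, as log2(FPKM + 1), in the 4 young homozygous B libraries (red, left of each pair) and the 4 young WT B libraries (blue, right). Points are libraries and black bars give the mean ± SD. Of the 8, 6 are lower and 2 higher in homozygous cells, with no overlap between genotypes.

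Of the 16 genes next in order of p, none passed (adjusted p 0.0574 to 0.071), and 14 had negative and 2 positive fold changes. Several are genes of macrophages. Axl, a receptor for apoptotic cells, had 19.2, 18.1, 11.97 and 9.69 FPKM in homozygous B cells and 51.9, 69.6, 56.3 and 59.5 FPKM in WT B cells, and Mrc1, the mannose receptor, had 3.56, 3.58, 2.86 and 3.02 FPKM in homozygous B cells and 12.7, 10.1, 10.8 and 14.2 FPKM in WT B cells. Selenop, the plasma carrier of selenium, had 44.0, 45.1, 36.1 and 32.5 FPKM in homozygous cells and 82.3, 72.3, 86.6 and 85.6 FPKM in WT cells. The remaining negative genes were Fyb, Crip2, Tspan15, Siglece, C2, Fcgr1, Ceacam2, Bpgm, Acp2, Amz1 and Gm20538, whose homozygous libraries were all listed at 0. The positive ones were Snord13, a small nucleolar RNA, with 545, 509, 843 and 448 FPKM in homozygous cells and 309, 186, 198 and 171 FPKM in WT cells, and the mRNA decapping enzyme Dcp2, with 27.1 to 31.1 FPKM in homozygous cells and 12.9 to 22.2 FPKM in WT cells. All 16 lay apart between the genotypes, and all but Gm20538 passed in the young-only fit.

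The 17 markers of red pulp macrophages were all tested. Cd163 passed the threshold, and in the young-only fit 16 of the 17 passed, all lower, the exception being Mertk. Over all genes, 1.43% passed lower in that fit. All 17 had homozygous libraries below every WT library, against 5.63% of all genes tested. The median log2 fold change was -1.65, against -0.02 over all genes. Summed over the list, homozygous B libraries held 291 to 520 FPKM and WT B libraries 1150 to 1530 FPKM. In bulk samples fewer cells of a type and less RNA per cell cannot be told apart. Vcam1, an adhesion molecule of these macrophages, had 49.1, 52.1, 44.2 and 29.5 FPKM in homozygous cells and 139.8, 150.2, 121 and 147 FPKM in WT cells, a log2 fold change of -1.68 ± 0.34 (adjusted p = 0.0786). Slc40a1, the iron exporter ferroportin, had 58.8, 95.8, 68.1 and 33.5 FPKM in homozygous cells and 192, 195, 170 and 205 FPKM in WT cells, a log2 fold change of -1.65 ± 0.50 (adjusted p = 0.264). C1qb, a chain of the complement component C1q, had 69.8, 78.4, 64.6 and 46.1 FPKM in homozygous cells and 194, 271, 177 and 197 FPKM in WT cells, a log2 fold change of -1.69 ± 0.37 (adjusted p = 0.0977). The groups lay well apart for all 3, and homozygous replicate 4 was the lowest library for each.

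Over the same list, old B cells had a median log2 fold change of -0.85. The test of old homozygous against old WT B cells called 1 gene (0.00815%), which was none of these. In old homozygous B cells Cd163 stood at 0.682, 5.44 and 0.668 FPKM, against 3.56, 3.49 and 6.39 FPKM in old WT B cells, so that old homozygous replicate 2 lay among the old WT libraries. The age by genotype interaction, which tests whether the genotype difference in young B cells differs from that in old B cells, called 0 genes with limma at the adjusted threshold and 868 at an unadjusted p below 0.05 (7.07%). Cd163 had an adjusted interaction p of 0.672.

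In young non-BT cells the same list summed to 1310 to 1350 FPKM in homozygous libraries and 1150 to 1400 FPKM in WT libraries, a median log2 fold change of -0.30. A test over all 42 libraries of the genotype effect in young B cells minus that in young non-BT cells called 138 of 15143 genes (0.911%). Of the 86 that were also tested in B cells, 42 had the larger change in B cells, and 40 of these were lower in homozygous B cells. Among the red pulp macrophage markers it called 4, all negative. Among these were Cd163, with a difference of effects of -2.59 ± 0.51 (adjusted p = 0.00942), Csf1r, the receptor for the macrophage growth factor M-CSF (-2.19 ± 0.48, adjusted p = 0.0177), and Axl (-1.83 ± 0.43, adjusted p = 0.0282). Csf1r was picked for this call after its values were seen. Csf1r had 32.6, 30.4, 28.1 and 17.1 FPKM in homozygous B cells and 84.9, 125, 83.5 and 99.3 FPKM in WT B cells. In non-BT cells it had 473, 499, 506 and 496 FPKM in homozygous libraries and 431, 338, 442 and 352 FPKM in WT libraries. Its order between genotypes was thus opposite there, but without a call (log2 fold change 0.35 ± 0.35, limma adjusted p = 0.774). The difference of effects also passed for Cd14 (-2.28 ± 0.49, adjusted p = 0.0147). It had 117, 59.9, 68.3 and 61.9 FPKM in homozygous and 100, 84.1, 63.7 and 75.8 FPKM in WT non-BT libraries, which overlapped.

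The order of cell types differed between these genes. Csf1r stood higher in every young non-BT library than in any young B library, but Cd163 did not. In non-BT cells Cd163 had 1.26, 1.52, 1.051 and 0.839 FPKM in homozygous libraries and 2.91, 2.46, 2.26 and 1.34 FPKM in WT libraries, below the WT B libraries. In T cells it had 0.344, 0.441, 0.467 and 0.578 FPKM in homozygous libraries and 7.68, 7.75, 6.31 and 5.498 FPKM in WT libraries, a log2 fold change of -2.41 ± 0.38 (adjusted p = 0.00198). In T cells the same test called 116 genes (0.766%). C6 also fell in T cells, with 0.300, 0.871, 0 and 0 FPKM in homozygous libraries and 6.33, 8.38, 3.60 and 6.23 FPKM in WT libraries, a log2 fold change of -2.47 ± 0.45 (adjusted p = 0.00597). Axl fell in T cells too, with 8.73, 12.3, 3.82 and 11.4 FPKM in homozygous libraries and 33.7, 26.8, 23.8 and 25.3 FPKM in WT libraries, a log2 fold change of -1.59 ± 0.32 (adjusted p = 0.0094). Vcam1, Slc40a1, Mrc1, Fcna, Hmox1, C1qa, C1qb and C1qc, also on the macrophage list, passed in T cells as well, all lower. In non-BT cells Axl had 10.6 to 13.4 FPKM in homozygous libraries and 11.7 to 14.4 FPKM in WT libraries, all below the WT B libraries.

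**Figure D2:**
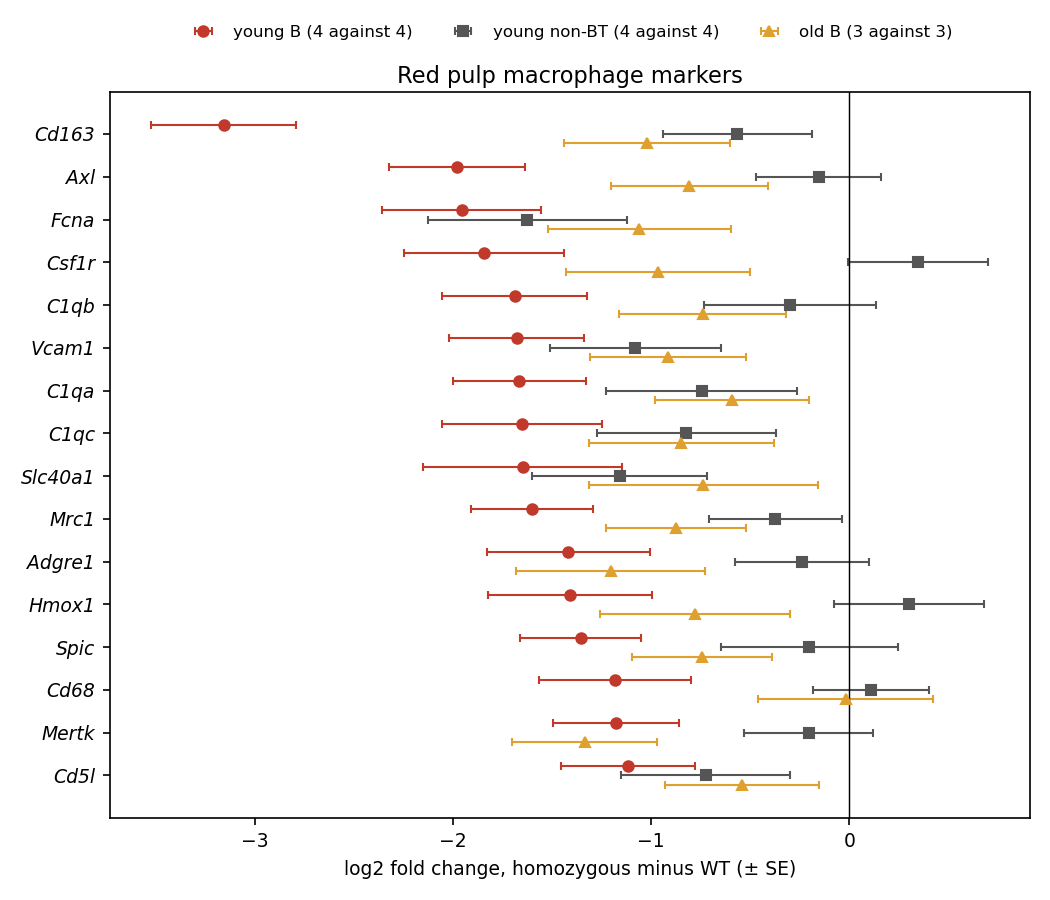
Log2 fold change, homozygous minus WT, of 16 red pulp macrophage markers in young B cells (red circles, 4 against 4 libraries), young non-BT cells (grey squares, 4 against 4) and old B cells (orange triangles, 3 against 3), with bars for the SE. All 16 lie below 0 in young B cells, where Cd163 lies lowest.

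Homozygous libraries also lay below WT libraries for some genes of iron handling and for globin genes. Of 12 genes of iron handling (median -0.51), Cd163 passed. Cd163 and 4 others passed in the young-only fit, all lower, against 1.43% of all genes. For 8 the homozygous libraries lay below every WT library, against 5.63% of all genes. Trf, transferrin, had 59.1, 68.6, 49.2 and 36.4 FPKM in homozygous cells and 139, 172, 119 and 154 FPKM in WT cells, and Slc11a1, the phagosomal metal transporter Nramp1, passed in the young-only fit with 6.38 to 13.4 FPKM in homozygous and 23.1 to 34.1 FPKM in WT libraries. Ferritin heavy chain, Fth1, overlapped between the groups at 2474 to 2913 FPKM in homozygous cells and 2303 to 2776 FPKM in WT cells. Of the 8 erythroid markers tested, 5 were negative and 3 positive (up to 0.46), and none passed (list median -1.60). The 4 globin genes lay apart between the genotypes, all lower, and Hba-a1 passed in the young-only fit. Hba-a1, an α-globin gene whose reads are shared with its near-identical copy Hba-a2, had 64.6, 43.3, 49.6 and 18.0 FPKM in homozygous cells and 401, 184, 236 and 78.2 FPKM in WT cells. The spread within each genotype was wide, the log2 fold change was -2.24 ± 0.55 (adjusted p = 0.131), and replicate 4 was the lowest in both genotypes.

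Of 6 tested genes of complement (median -1.19), C6 passed. C2, C3, C6 and Cfp passed in the young-only fit, all lower, against 1.43% of all genes. In all, 5 lay below every WT library, against 5.63% of all genes. C2, a protease of the classical pathway, had 0.594, 1.44, 1.38 and 0.201 FPKM in homozygous cells and 4.397, 4.23, 3.57 and 2.82 FPKM in WT cells. Cfp, properdin, which stabilises the alternative pathway convertase, had 88.6, 113, 95.2 and 97.01 FPKM in homozygous cells and 140.5, 198, 132 and 147 FPKM in WT cells. C3, the central component, was one of those below all WT libraries, with 0.342 to 1.40 FPKM in homozygous cells and 2.67 to 4.61 FPKM in WT cells.

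Markers of further cell types that a B cell preparation may hold were mostly low. Of the 12 endothelial markers 4 were tested and Stab2 passed (median -0.43), while Tek and Emcn were listed at 0 in all 8 libraries. Vwf, von Willebrand factor, had 0.129 to 0.730 FPKM in homozygous and 0.587 to 1.98 FPKM in WT libraries, which overlapped. Egfl7, a secreted factor of vessels, had 0 to 3.95 FPKM in homozygous and 0.248 to 0.902 FPKM in WT libraries. Pecam1, which B cells also express, had 81.8 to 90.1 FPKM in homozygous cells and 82.7 to 94.9 FPKM in WT cells. Of the 4 markers of marginal zone and metallophilic macrophages 2 were tested, neither passed, and both lay apart (median -1.02). One of them, Nr1h3, the nuclear receptor LXRα, passed in the young-only fit, with 3.58, 3.61, 2.90 and 3.81 FPKM in homozygous cells and 8.79, 13.4, 9.11 and 8.58 FPKM in WT cells. Of 5 tested monocyte markers Treml4 passed in the young-only fit, with 13.9 to 21.01 FPKM in homozygous and 31.5 to 45.7 FPKM in WT libraries (list median -0.53). All 12 tested T cell markers were negative without a call (median -0.55), as were all 4 tested markers of natural killer cells (-0.52), of which Prf1, perforin, passed in the young-only fit. Cd3e, part of the T cell receptor complex, had 0.555 to 1.93 FPKM in homozygous and 1.27 to 2.80 FPKM in WT libraries. Of 8 tested neutrophil markers 7 were positive and none passed (median 0.32). The calcium-binding protein gene S100a8 had 4.42 to 26.9 FPKM in homozygous and 2.63 to 8.60 FPKM in WT libraries, and its partner S100a9 had 5.94 to 12.8 FPKM in homozygous and 4.75 to 5.31 FPKM in WT libraries. The 8 tested markers of conventional dendritic cells had a median of -0.07 and no call. The part of these cells in the results on macrophage genes was not tested.

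The 13 pan-B markers had a median log2 fold change of -0.06, which turned to 0.01 with quantile normalization, and Ighm was the one that passed in the young-only fit. Of 5 follicular markers none passed, with a median of 0.13. For 3 the homozygous libraries lay above every WT library, against 2.19% of all genes tested. Klf2, a factor that keeps resting B cells follicular, had 177, 165, 192 and 156 FPKM in homozygous cells and 127, 130, 147 and 149 FPKM in WT cells. Of 10 marginal zone markers none passed and 9 were negative, with a median of -0.32. Lower without overlap in homozygous cells were 4, against 5.63% of all genes tested. Asb2, a ubiquitin ligase subunit, and S1pr3, a sphingosine-1-phosphate receptor that holds marginal zone B cells in place, passed in the young-only fit. Asb2 had 10.5, 13.6, 9.66 and 6.73 FPKM in homozygous cells and 24.9, 34.9, 22.9 and 23.6 FPKM in WT cells. It stood higher in every young non-BT library, at 115 to 158.5 FPKM in homozygous and 132 to 165 FPKM in WT libraries. The part of non-B cells in its difference was not tested. S1pr3 had 16.8, 18.2, 15.7 and 17.2 FPKM in homozygous cells and 37.1, 34.4, 31.0 and 27.1 FPKM in WT cells. Cr2, complement receptor 2, had 387 to 443 FPKM in homozygous and 426 to 573 FPKM in WT libraries, which overlapped, and Dtx1, a partner of Notch, had 102 to 114 FPKM in homozygous and 116 to 205 FPKM in WT libraries.

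Genes of antibody-secreting cells had negative fold changes throughout. All 13 plasma cell markers were negative with a median of -0.78, and none passed over all 14 libraries. In the young-only fit 6 passed, all lower, against 1.43% of all genes. The list median was -0.47 in old B cells and -0.61 in young non-BT cells. Jchain, which joins IgM and IgA units, had 639, 547, 660 and 870 FPKM in homozygous cells and 1309, 1536, 2198 and 2253 FPKM in WT cells. The groups did not overlap, and the log2 fold change was -1.41 ± 0.37 (adjusted p = 0.168). Xbp1, the transcription factor that builds the secretory apparatus, had 133, 142, 147 and 160 FPKM in homozygous cells and 204, 243, 258 and 301 FPKM in WT cells, a log2 fold change of -0.78 ± 0.19 (adjusted p = 0.129). Mzb1, a chaperone of IgM secretion, had 281, 272, 311 and 352 FPKM in homozygous cells and 378, 441, 474 and 502 FPKM in WT cells, again without overlap. Slamf7, a surface receptor of plasma cells, had 20.5 to 35.1 FPKM in homozygous and 34.6 to 53.4 FPKM in WT libraries, with 1 library of each genotype in the shared range.

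Of 12 immunoglobulin constant region genes none passed, 9 were negative and 2 passed in the young-only fit, Ighg3 and Ighm (list median -0.75). Ighg3, the heavy chain of IgG3, had 58.8, 58.0, 81.3 and 70.2 FPKM in homozygous cells and 216, 531, 361 and 808 FPKM in WT cells. The WT libraries varied widely but all lay above every homozygous library, with a log2 fold change of -2.67 ± 0.73 (adjusted p = 0.199). Ighm had 6904, 7033, 6927 and 7708 FPKM in homozygous cells and 9374, 13450, 12820 and 12940 FPKM in WT cells. Ighd, the heavy chain of IgD that resting B cells carry beside IgM, lay the other way with 1633, 1615, 1743 and 1635 FPKM in homozygous cells and 1538, 1436, 1540 and 1524 FPKM in WT cells, a small difference without overlap (log2 fold change 0.13 ± 0.15, adjusted p = 0.843). Over all 256 immunoglobulin genes tested, 203 were negative with a median of -0.42 and none passed. Of the 256, 44 lay below every WT library and 1 above, against 5.63% and 2.19% of all genes tested. How reads were divided between near-identical segments is not stated. Igkj2, a joining segment of very short length, was listed at 0 in 1 homozygous and 2 WT libraries and at 7051 FPKM or more in the rest. The 5 genes with the highest mean in homozygous B cells were Cd74, Igkc, Igkj2, H2-Ab1 and Ighm. Igkc, the kappa light chain, had 25110 to 28860 FPKM in homozygous and 31900 to 49580 FPKM in WT libraries. The fall was not confined to B cells. The constant region median was -2.62 in young non-BT cells and -0.40 in old B cells. Igkc passed lower in young non-BT cells (log2 fold change -2.38 ± 0.44, limma adjusted p = 0.000755) and in young T cells (-2.03 ± 0.44, limma adjusted p = 0.0197). Ighm passed lower in both as well.

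The endoplasmic reticulum folds and exports antibody chains, and the genes of its chaperones and of the unfolded protein response lay in the same direction as the secretory genes. All 21 were negative (median -0.40), and 13 lay below every WT library, against 5.63% of all genes tested. None passed over all 14 libraries and 6 passed in the young-only fit, all lower, against 1.43% of all genes. Xbp1 and Creld2 are on this list and on that of plasma cells. Many of these genes are known targets of ATF6 and XBP1 through the ER stress element, and this element was searched for in the 250 bases before the gene starts of RefSeq (GRCm38.p6). The motif, CCAAT followed after 9 bases of any kind by CCACG, was read on both strands with overlaps allowed. It was found before 8 of the 19 list genes in that table (42.1%), and before 0.13% of all 27025 gene symbols (0.113% of all 32851 windows). Since the list holds known targets of this element, its higher share follows in part from the choice of list. The 8 were Hspa5, Hsp90b1, Pdia6, Calr, Canx, Dnajc3, Creld2 and Syvn1, all below every WT library, as were 5 of the 11 list genes without a match. A match is a description of the sequence and not of binding. The windows of 3 of these genes are shown because the genes hold the motif and passed in the young-only fit. The other list genes that passed in that fit had no match. The motif is in capitals.
Hspa5 (chr2:34771840-34772089, plus strand): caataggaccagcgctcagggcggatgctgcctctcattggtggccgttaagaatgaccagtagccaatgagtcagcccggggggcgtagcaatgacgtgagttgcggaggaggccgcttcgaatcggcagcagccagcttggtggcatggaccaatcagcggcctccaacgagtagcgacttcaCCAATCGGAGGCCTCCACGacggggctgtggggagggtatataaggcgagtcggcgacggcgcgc
Hsp90b1 (chr10:86705445-86705694, minus strand): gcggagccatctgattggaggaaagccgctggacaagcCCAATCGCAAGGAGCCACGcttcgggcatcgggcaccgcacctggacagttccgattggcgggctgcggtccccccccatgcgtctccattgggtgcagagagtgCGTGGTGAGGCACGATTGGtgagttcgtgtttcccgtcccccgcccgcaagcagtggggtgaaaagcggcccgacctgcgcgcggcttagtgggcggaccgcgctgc
Creld2 (chr15:88819396-88819645, plus strand): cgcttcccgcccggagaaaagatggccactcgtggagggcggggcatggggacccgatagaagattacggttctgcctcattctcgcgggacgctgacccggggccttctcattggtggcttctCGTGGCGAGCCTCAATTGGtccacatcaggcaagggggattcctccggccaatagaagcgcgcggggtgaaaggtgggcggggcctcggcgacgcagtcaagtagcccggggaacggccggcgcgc

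Hspa5, the main chaperone of the endoplasmic reticulum (BiP), had 680, 724, 647 and 829 FPKM in homozygous cells and 861, 1105, 1055 and 1224 FPKM in WT cells, a log2 fold change of -0.55 ± 0.16 (adjusted p = 0.226). Hsp90b1, the chaperone GRP94, whose window holds 2 matches, had 322, 333, 321 and 429 FPKM in homozygous cells and 447, 598, 585 and 690 FPKM in WT cells, a log2 fold change of -0.72 ± 0.20 (adjusted p = 0.23). Creld2, a secreted disulfide isomerase, had 80.1, 68.0, 71.4 and 103 FPKM in homozygous cells and 105, 198, 174 and 186 FPKM in WT cells. Homozygous replicate 4 was the highest of its group for all 3, and WT replicate 1 the lowest of its group. Pdia4, another disulfide isomerase, had 213, 214, 239 and 253 FPKM in homozygous cells and 305, 367, 327 and 371 FPKM in WT cells, with no match in its window. The cytosolic heat shock list had a median of -0.38 with no call among 11 genes. Its most abundant member Hspa8, a constitutive chaperone, had 1887 to 2385 FPKM in homozygous and 2399 to 2929 FPKM in WT libraries.

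Germinal centres are the sites where activated B cells divide and mutate their receptors. All 9 tested markers of germinal centre B cells were negative (median -1.50), but none passed in either fit and none lay apart between the genotypes. Mef2b, a transcription factor of these cells, had 4.83, 6.02, 7.10 and 22.2 FPKM in homozygous cells and 13.3, 28.3, 38.8 and 51.5 FPKM in WT cells. Gcsam, a signalling adaptor, had 3.32, 0.187, 1.02 and 9.15 FPKM in homozygous cells and 4.71, 10.7, 11.98 and 27.4 FPKM in WT cells. Nuggc, a nuclear GTPase of germinal centre cells, had 0.661, 0.858, 0.585 and 2.96 FPKM in homozygous cells and 2.24, 3.53, 5.91 and 11.2 FPKM in WT cells. In each case homozygous replicate 4 reached into the WT range, and Bcl6, which resting B cells also carry, had 29.0 to 44.9 FPKM in homozygous and 36.4 to 47.8 FPKM in WT libraries. The list median in old B cells was 0.23.

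All 32 cell cycle genes were negative with a median of -0.60, none passed in either fit, and 2 lay apart, both lower. That share is near the one over all genes tested, of which 5.63% lay below every WT library. Cdc20, an activator of the anaphase-promoting complex, had 22.9, 11.4, 19.3 and 28.7 FPKM in homozygous cells and 23.8, 49.2, 42.1 and 60.7 FPKM in WT cells, a log2 fold change of -1.052 ± 0.34 (adjusted p = 0.287). Plk1, a mitotic kinase, had 9.42, 4.93, 6.21 and 12.3 FPKM in homozygous cells and 11.2, 15.1, 21.2 and 21.9 FPKM in WT cells. Mcm6, part of the replicative helicase and one of the 2 genes that lay apart, had 52.0, 49.97, 58.8 and 63.5 FPKM in homozygous cells and 63.7, 72.8, 75.3 and 97.6 FPKM in WT cells. The median was 0.29 in old B cells and 0.38 in young non-BT cells.

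**Figure D3:**
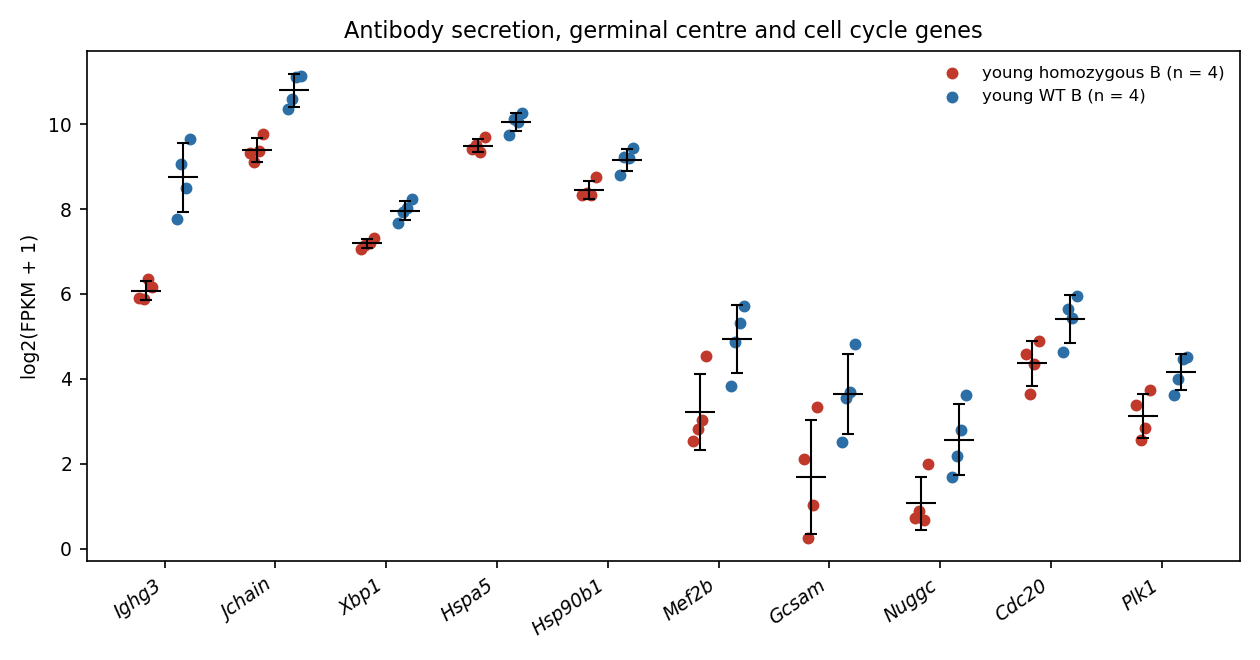
Expression of genes of antibody secretion (Ighg3, Jchain, Xbp1), of endoplasmic reticulum chaperones (Hspa5, Hsp90b1), of germinal centre cells (Mef2b, Gcsam, Nuggc) and of the cell cycle (Cdc20, Plk1), as log2(FPKM + 1), in young homozygous B libraries (red, left of each pair) and young WT B libraries (blue, right). Points are libraries and black bars the mean ± SD (n = 4 each). The genotypes lie apart for the first 5 genes and overlap for the other 5.

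All 11 structural subunits of the 20S barrel were positive (median 0.28), and none passed in either fit. Of these 5 lay above every WT library, against 2.19% of all genes tested. Of the 18 genes of the 19S cap 17 were positive (median 0.27), the exception being Psmd13, and 8 lay above every WT library. None passed over all 14 libraries and 3 passed in the young-only fit, all higher, against 0.111% of all genes. The 20S median was 0.47 in old B cells and 0.33 in young non-BT cells, and the 19S median was 0.34 in old B cells and 0.40 in young non-BT cells. Psmd7, a scaffold subunit of the 19S lid, had 112, 120.2, 121 and 120.5 FPKM in homozygous cells and 77.9, 80.6, 80.5 and 87.3 FPKM in WT cells. The groups were tight and apart, with a log2 fold change of 0.53 ± 0.13 (adjusted p = 0.144). Psmc2, an ATPase of the 19S base, had 108, 109, 102 and 109 FPKM in homozygous cells and 73.7, 81.4, 80.1 and 79.6 FPKM in WT cells, a log2 fold change of 0.44 ± 0.11 (adjusted p = 0.131). Psmd1, a large subunit of the base named because it passed in the young-only fit, had 77.7, 83.2, 90.8 and 81.2 FPKM in homozygous cells and 54.2, 64.8, 64.4 and 60.5 FPKM in WT cells.

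Within the 20S barrel, Psma5, an α-ring subunit, had 131, 129, 141 and 149.9 FPKM in homozygous cells and 95.4, 108, 106 and 119 FPKM in WT cells, a log2 fold change of 0.36 ± 0.11 (adjusted p = 0.247). Psmb2, a non-catalytic β-ring subunit, had 296, 307, 311 and 326 FPKM in homozygous cells and 226, 259.5, 266 and 285 FPKM in WT cells, a log2 fold change of 0.26 ± 0.08 (adjusted p = 0.253). Both lay apart between the genotypes. Psmc3, another ATPase of the base, also lay apart, with 174 to 186 FPKM in homozygous and 134 to 160 FPKM in WT libraries, while Psma2, an α-ring subunit, overlapped at 309 to 377 FPKM in homozygous and 291 to 322 FPKM in WT libraries. The direction of both list medians was positive under quantile normalization and after leaving out immunoglobulin genes.

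**Figure D4:**
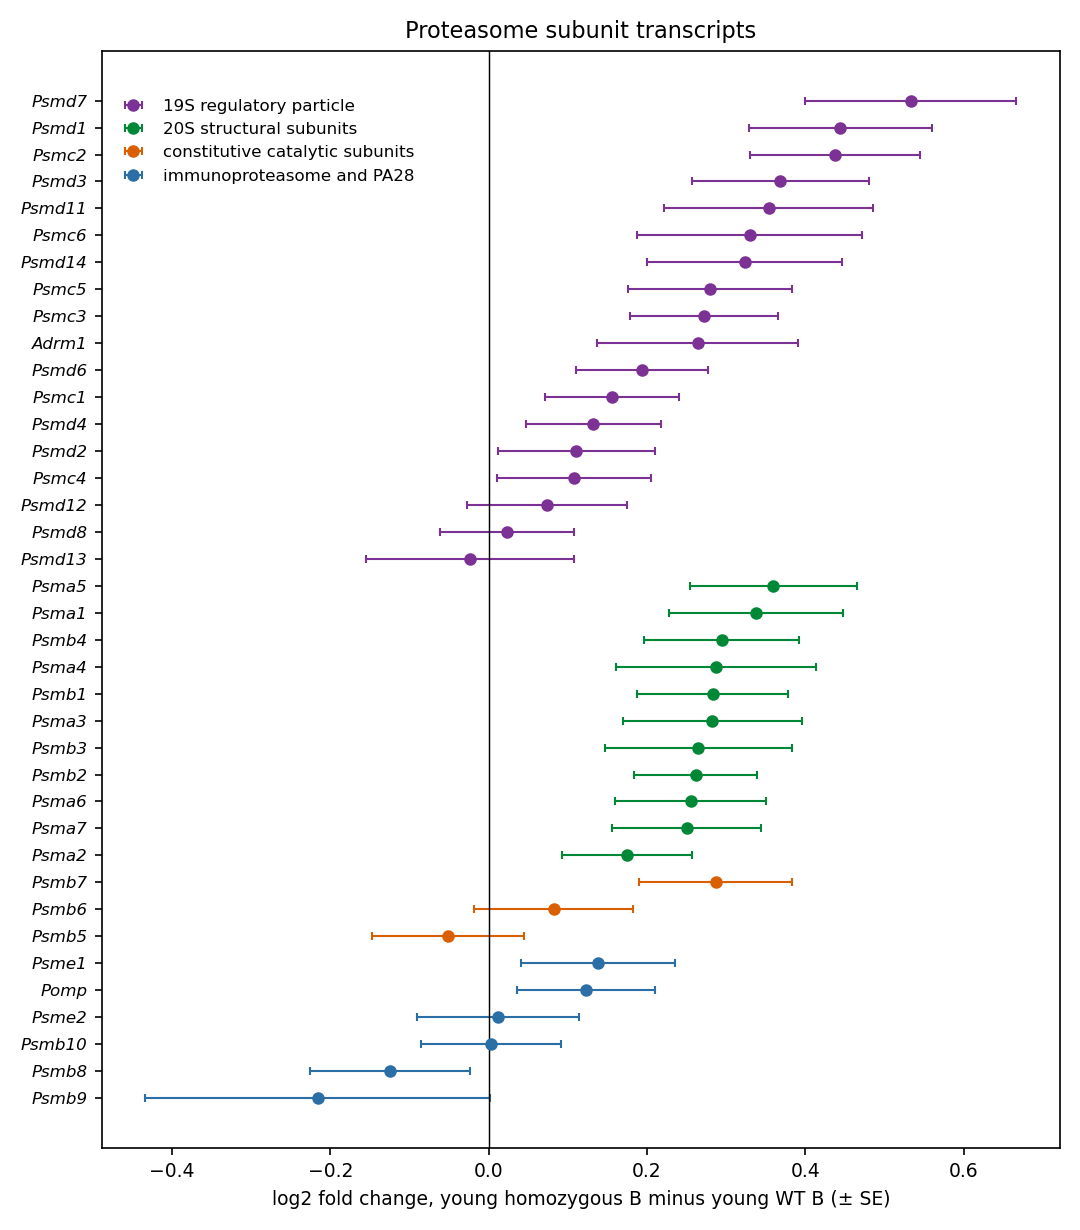
Log2 fold change, young homozygous B minus young WT B, of proteasome transcripts, with bars for the SE, grouped as 19S cap, 20S structural subunits, constitutive catalytic subunits and immunoproteasome with PA28. Of the 29 genes of the first 2 groups, 28 lie above 0, and Psmb8 lies at -0.12.

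Of 11 genes of MHC class I and peptide loading none passed (median -0.12). Homozygous libraries lay below every WT library for 3, against 5.63% of all genes tested. H2-K1, a classical class I heavy chain, had 1158, 1190, 1222 and 1192 FPKM in homozygous cells and 1472, 1704, 1455 and 1444 FPKM in WT cells, without overlap (log2 fold change -0.35 ± 0.14, adjusted p = 0.436). Calr, a chaperone of class I assembly that is also on the endoplasmic reticulum list, had 209 to 226 FPKM in homozygous and 246 to 294 FPKM in WT libraries. How reads were divided between H2-K1 and its paralogs is not stated. The 10 genes of MHC class II had a median of -0.02, which turned to 0.11 with quantile normalization. Cd74, the invariant chain, had 26440 to 28650 FPKM in homozygous and 25350 to 33780 FPKM in WT libraries, and H2-Ab1, a chain of a class II molecule, had 9024 to 9965 FPKM in homozygous and 9211 to 11680 FPKM in WT libraries.

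Of 31 tested genes of the type I interferon response none passed in either fit, 22 were negative and the median was -0.06, which turned to 0.0333 within replicates 3 and 4. Over the same genes the median in old B cells was 0.31. Isg15, a ubiquitin-like protein and a standard reporter of interferon, had 5.03, 6.04, 5.45 and 9.47 FPKM in homozygous cells and 10.8, 11.6, 11.4 and 11.01 FPKM in WT cells, lower without overlap (log2 fold change -0.74 ± 0.22, adjusted p = 0.263). Ifih1, the RNA sensor MDA5, had 1.35, 1.35, 1.22 and 1.59 FPKM in homozygous cells and 2.36, 4.91, 2.91 and 3.01 FPKM in WT cells. These were the 2 genes of the list that lay apart, both lower. Their share of the list is near that over all genes tested, of which 5.63% lay below every WT library. The 15 GTPases induced by interferon-gamma had a median of -0.13 and no call, against a median of 0.40 in old B cells. Gbp8, a member, had 6.69 to 8.50 FPKM in homozygous and 10.1 to 14.8 FPKM in WT libraries. Of 15 tested genes of NF-kB and inflammation none passed over all 14 libraries (median -0.03). Il1b, the cytokine interleukin 1β, passed in the young-only fit, with 0.637, 1.81, 2.05 and 1.85 FPKM in homozygous cells and 4.25, 7.02, 4.44 and 6.67 FPKM in WT cells. It is also a gene of monocytes and macrophages, whose markers lay in the same direction as given above, and their part in its difference was not tested.

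**Figure D5:**
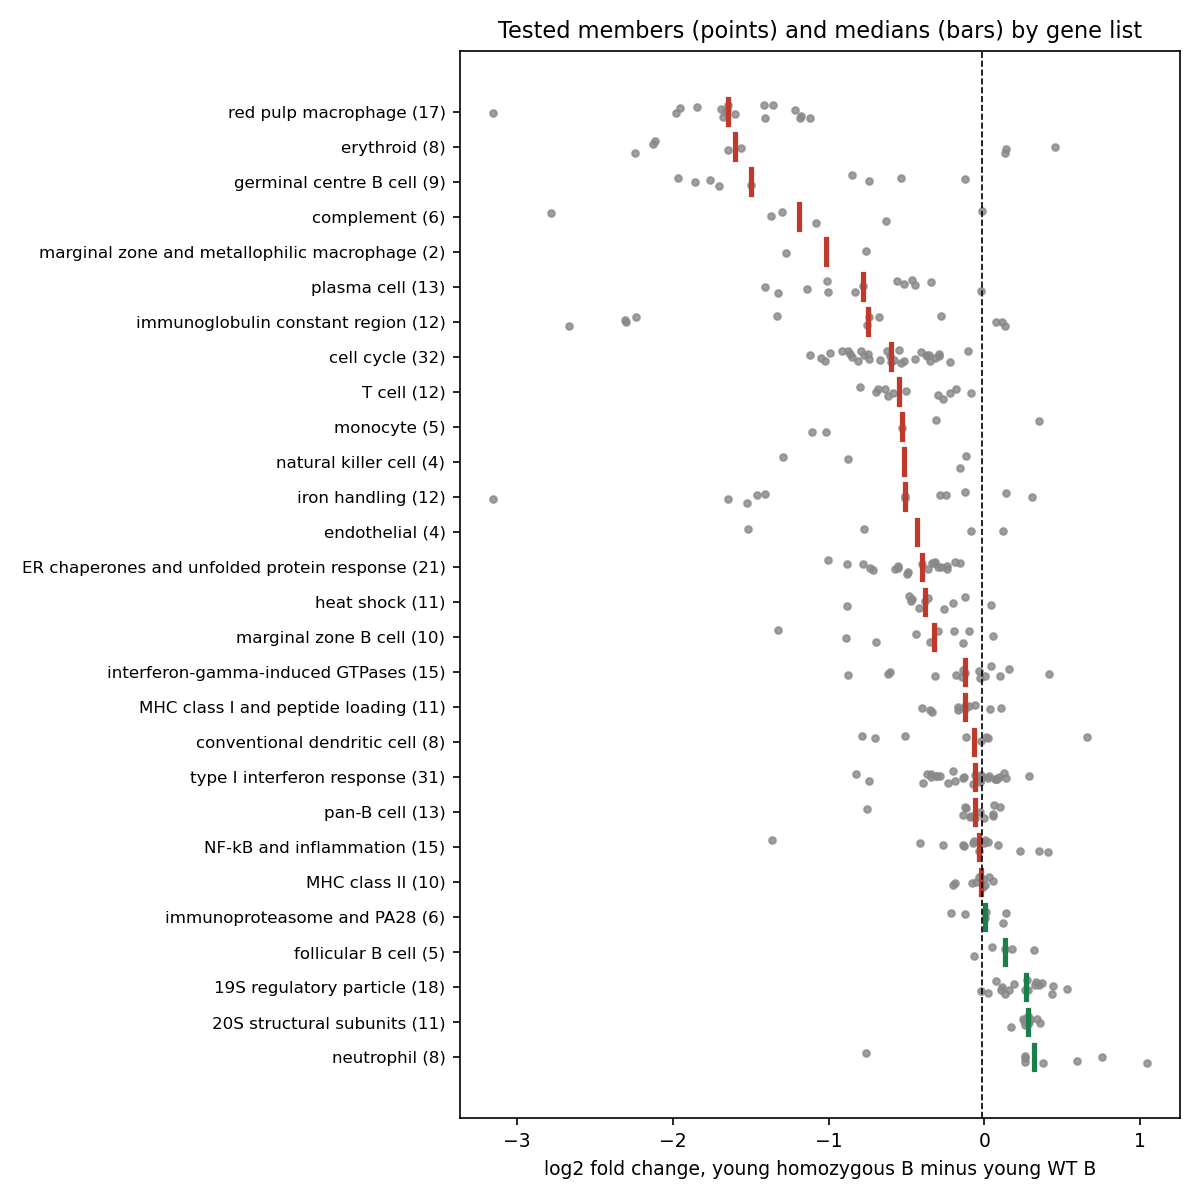
Log2 fold change, young homozygous B minus young WT B, of the tested members (grey points) of 28 gene lists, with the number tested in brackets and a coloured bar at each list's median. The dashed line is the median of all 12269 genes tested, -0.02. By median, red pulp macrophage, erythroid and germinal centre genes lie lowest, and neutrophil, 20S and 19S genes highest among these lists. Of the 8 erythroid genes, 3 are positive.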

How the data were processed

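RNA of spleen cell fractions was taken with a micro column kit, amplified with SMART-Seq HT and made into Nextera XT libraries, per the labels' protocols. Neither kit marks strand, and no molecular identifiers were used. The deposited FPKM values per gene were calculated by the authors with HISAT2 2.1.0, Cufflinks 2.2.1 and Cuffdiff on GRCm38.p4, per the submitters' processing notes. The counting of reads shared by near-identical genes is not given in the sources used here. Counts were not in the files used here, and the estimated depth rests on the smallest steps of FPKM. An FPKM of 0 may be a failed estimate.

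A gene entered the test when 3 or more of the 14 B libraries held 1 FPKM or more. Values of log2(FPKM + 1) were tested with limma 3.58.1 in R 4.3.3, using a mean-variance trend and two-sided p-values. These were adjusted by Benjamini-Hochberg over every gene tested, and the threshold was 0.05. The 4 groups of B libraries share 1 estimate of the spread. A second fit covered all 42 libraries, blocked on the title without its cell type (age, number and genotype, which may mark an animal), and gave the T and non-BT values. The script was tested on simulated data. All gene lists, and the choice of these libraries, were made with earlier results of these data known. Genes named are Psmb8, those past the threshold, the next by p to 25, in each list the called members with the 2 highest and the 2 with the smallest p, and the 5 highest in homozygous B cells. Vcam1, Csf1r, Slc11a1, C3, Creld2, Psmd1 and Cd79a were named after their values were seen. No samples of the comparison were dropped. Single genes past a threshold that the text counts but does not name are not reported here. Alternatives were another pseudocount (0.1), no filter, quantile normalization, array weights, blocks, only the young libraries, and each library left out in turn.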

Additional observations from a re-analysis of the deposited data

Results flagged for a closer look

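Of 180 groups of 4 libraries examined, 17 (9.44%) held a library far from the other 3 by Dixon's test at the 95% level, which flags about 5% of groups by chance. In homozygous B cells these were Stab2 in replicate 4 at 0.525 FPKM, Ceacam2 in replicate 1 at 3.91, Ighm in replicate 4 at 7708, Hsp90b1 in replicate 4 at 429, Ighd in replicate 3 at 1743, Nuggc in replicate 4 at 2.96, Mef2b in replicate 4 at 22.2, Psmc2 in replicate 3 at 101.6, Psmd7 in replicate 1 at 112, Cd79a in replicate 4 at 1779 and Il1b in replicate 1 at 0.637 FPKM. In WT B cells these were Gm20538 in replicate 2 at 4.03 FPKM, Ighm in replicate 1 at 9374, Nr1h3 in replicate 2 at 13.4, Asb2 in replicate 2 at 34.9, Ighd in replicate 2 at 1436 and H2-K1 in replicate 2 at 1704 FPKM.

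The genotype difference in young B cells was set against that in young non-BT cells with limma, and 14 genes named in the text differed. Over all 15143 genes this comparison called 138 (0.911%). Many named genes were chosen by their difference in young B cells, which this comparison contains, so the count of 14 is no separate support. The difference of the 2 log2 fold changes was -2.59 for Cd163, -2.52 for Fcgr1, -2.28 for Cd14, -2.19 for Csf1r, -2.02 for Crip2 and -2.01 for C3. It was -1.83 for Axl, -1.75 for Slc11a1, -1.60 for Nr1h3, -1.51 for Ceacam2, -1.29 for Acp2, -1.15 for Selenop and -0.96 for Fyb. The one positive gene was 6030468B19Rik, at 1.25.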

How the results depend on the processing

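The count of 9 genes became 2 with a pseudocount of 0.1, 3 without a filter, 5 with quantile normalization, 139 with array weights, 151 with the replicate block, 180 with only the young libraries fitted, 0 within replicates 1 and 2, and 0 within replicates 3 and 4, where 2 libraries face 2. Leaving out 1 library gave 2 to 86. All 9 genes were among the calls with array weights, with the block and with only young libraries. Over all genes tested, same-numbered samples did not deviate together (r = 0.0591, -0.0486, -0.0112 and 0.1598, with 1 of 4 samples closest to its own number). Single genes could differ from this, as Hba-a1 and Mef2b had the same order of replicates in both genotypes. With so few samples these values cannot decide whether the numbers pair the samples, and the labels do not say. The block called 0 genes in the age interaction and 142 in the comparison with non-BT cells. The interaction called 1 gene without a filter and 1 without the trend, against 0, and 0 to 1 with a library left out. The comparison with non-BT cells, 138 genes, gave 60 with the other pseudocount, 607 with weights, 86 without the title block and 77 to 180 with a library left out. The young-only count of 180 was 125 to 241 with a library left out, an alternative chosen after seeing the data. Among list medians, with a pseudocount of 0.1 endothelial was -1.16, natural killer -0.87, neutrophil 0.75 and complement -1.70. Without a filter marginal zone macrophage was -0.69, endothelial -0.0134, natural killer -0.18, monocyte -0.10 and complement -0.63. With quantile normalization pan-B was 0.0142, follicular 0.25, 19S 0.35, MHC class I -0.0507 and MHC class II 0.11. With only young libraries endothelial was -0.78. Within replicates 1 and 2 macrophage was -1.43, monocyte -0.70, 19S 0.22, MHC class I -0.22, MHC class II -0.11 and NF-kB -0.13. Within replicates 3 and 4 endothelial was -0.0718, T cell -0.28, monocyte -0.21, dendritic -0.29, pan-B -0.0158, 19S 0.21 and NF-kB 0.0516. With a library left out dendritic ranged from -0.22 to -0.0199, pan-B from -0.10 to -0.0289, 19S from 0.19 to 0.27 and NF-kB from -0.0657 to 0.0529. Among the genes named with values, those that changed sign were Cd74 (0.39 with quantile normalization, 0.0031 without immunoglobulin genes, 0.063 with weights, 0.0937 within replicates 3 and 4, and -0.0577 to 0.0804 with a library left out), H2-Ab1 (0.19 with quantile normalization), Igkj2 (-0.0545 within replicates 1 and 2), Bcl6 (0.0615 there), Cd79a (-0.0368 there) and Egfl7 (-0.60 with a pseudocount of 0.1, -0.0181 within replicates 3 and 4, and -0.37 to 0.40 with a library left out, the lowest without homozygous replicate 1). The cause was not tested. Genes at low FPKM are the least precise, since the estimated depth gives them few fragments.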
